A study of Mus musculus with 6 samples.

Results

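A set of 10 genes of the count table encodes the chemokine ligands described here: Ccl1, Ccl3, Ccl4, Ccl5, Ccl9, Ccl17, Ccl20, Ccl22, Cxcl10 and Xcl1. They were taken by gene symbol as ligands that T cells can make, and each matched 1 of the 54532 genes counted. The libraries were made from CD4+ T cells purified from spleens of C57BL/6 mice and kept for 72 h under T helper 1 (Th1) conditions. Idelalisib, a drug that blocks phosphoinositide 3-kinase delta, was present in 3 idelalisib cultures and absent from 3 control cultures; both groups shared the strain, tissue, culture condition and time. The sources used here give no age of the animals, no idelalisib dose, no solvent control and nothing on pooling. The labels call the samples biological replicates without naming separate animals, so the spread behind the p-values, that between these cultures, may be technical alone.

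Chemokines are small secreted proteins that steer the migration of cells bearing matching G protein-coupled receptors. They are grouped into CC, CXC and C families by the arrangement of cysteines near the start of the mature protein. Activated T cells, Th1 cells among them, are known sources of Ccl3, Ccl4, Ccl5 and Xcl1, while Ccl17, Ccl22 and Cxcl10 are also well known products of dendritic cells, macrophages and tissue cells.

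Total counts ranged from 13372318 to 16770452 per library, so 3 reads corresponded to 0.179 to 0.214 CPM (counts scaled to a common library size with trimmed mean of M-values, TMM, factors). The summed level of 9 T cell markers was 3083 to 3327 CPM in control and 2868 to 3410 CPM in idelalisib libraries. On the second principal component, idelalisib replicate 2 lay at -28.6 and its fellow replicates at 9.84 and 16.8, and results that rest on it are given with and without it. Of all genes tested, 22.2% were called higher and 22.4% lower with idelalisib (edgeR quasi-likelihood test, adjusted p under 0.05). Of the 9 T cell markers, all tested, 2 were called higher (Cd3e and Cd3g) and 1 lower (Lck). Cd4 was not called, though every idelalisib value lay below every control value.

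The 250 bases before the annotated start of Cxcl10 and Ccl20 are shown because both genes were called higher with idelalisib and no motif searched was found in both windows. The windows are RefSeq sequence of build GRCm38.p6, chr5:92348890-92349139 on the minus strand for Cxcl10 and chr1:83116516-83116765 on the plus strand for Ccl20, and capitals mark matches to the motifs searched.
Cxcl10: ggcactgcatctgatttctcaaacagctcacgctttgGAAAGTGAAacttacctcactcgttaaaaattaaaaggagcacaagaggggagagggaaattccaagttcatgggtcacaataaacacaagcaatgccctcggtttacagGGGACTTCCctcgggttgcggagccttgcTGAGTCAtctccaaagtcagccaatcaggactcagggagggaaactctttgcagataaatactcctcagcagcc
Ccl20: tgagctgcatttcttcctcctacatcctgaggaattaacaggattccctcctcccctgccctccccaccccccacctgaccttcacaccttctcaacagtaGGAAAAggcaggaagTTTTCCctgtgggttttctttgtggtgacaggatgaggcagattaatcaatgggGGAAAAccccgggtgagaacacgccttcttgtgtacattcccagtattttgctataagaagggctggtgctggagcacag
Both strands were searched for an interferon-stimulated response element core (GAAANNGAA), an interferon gamma-activated site (TTCNNNGAA), an AP-1 site (TGANTCA), a kappaB site (GGGANTTCC) and an NFAT core (GGAAAA). The Cxcl10 window held the first of these at -213 to -205 from the gene start, the kappaB letters GGGACTTCC at -103 to -95 and the AP-1 letters TGAGTCA at -74 to -68. The Ccl20 window held the NFAT core at 3 places, starting at -149, -134 and -80, and none of the other letters. No match overlapped another in these windows. Among 32851 promoter windows of the same length, 7.13% held the interferon-stimulated core, 7.02% the gamma-activated site, 6.75% the AP-1 letters, 1.43% the kappaB letters and 20.4% the NFAT core. A match describes letters and not binding. Only the letters given were marked, so a window without a match may hold a site of the same factor in other letters. RefSeq windows were matched for 8 of the 10 genes. Outside the windows shown, those of Ccl1 and Ccl3 each held the NFAT core and the interferon-stimulated core. The Ccl9 window held the AP-1 letters and the Ccl17 window the gamma-activated site, while those of Ccl22 and Xcl1 held no match. The motifs are thus not particular to the genes called higher: Ccl3 and Ccl9 were not called, and Ccl1 and Ccl17 were not tested. No window was matched for Ccl4 or Ccl5, so their promoters were not searched.

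Idelalisib was accompanied by more Ccl5, Ccl20 and Cxcl10 RNA, while the neighbouring inflammatory chemokines Ccl3 and Ccl4 passed no test with all libraries. Of the 10 genes, 7 passed the filter on low counts, and 3 of these were called higher, 42.9% against 22.2% of all genes tested. None of the 7 was called lower, against 22.4% of all genes tested (edgeR); at an unadjusted p under 0.05 there was 1, Ccl22, and DESeq2 and limma-voom called 0. The median log2 fold change of the 7 was 0.03, beside 0.01 over all genes tested. Ccl20 passed the filter through its idelalisib libraries alone. Cxcl10 also needed its idelalisib libraries to pass, as control replicate 1, with 6 reads, fell short of the minimum count of 10. The count called is therefore a description. Ccl1, Ccl17 and Xcl1 had too few reads to test.

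**Figure D1:**
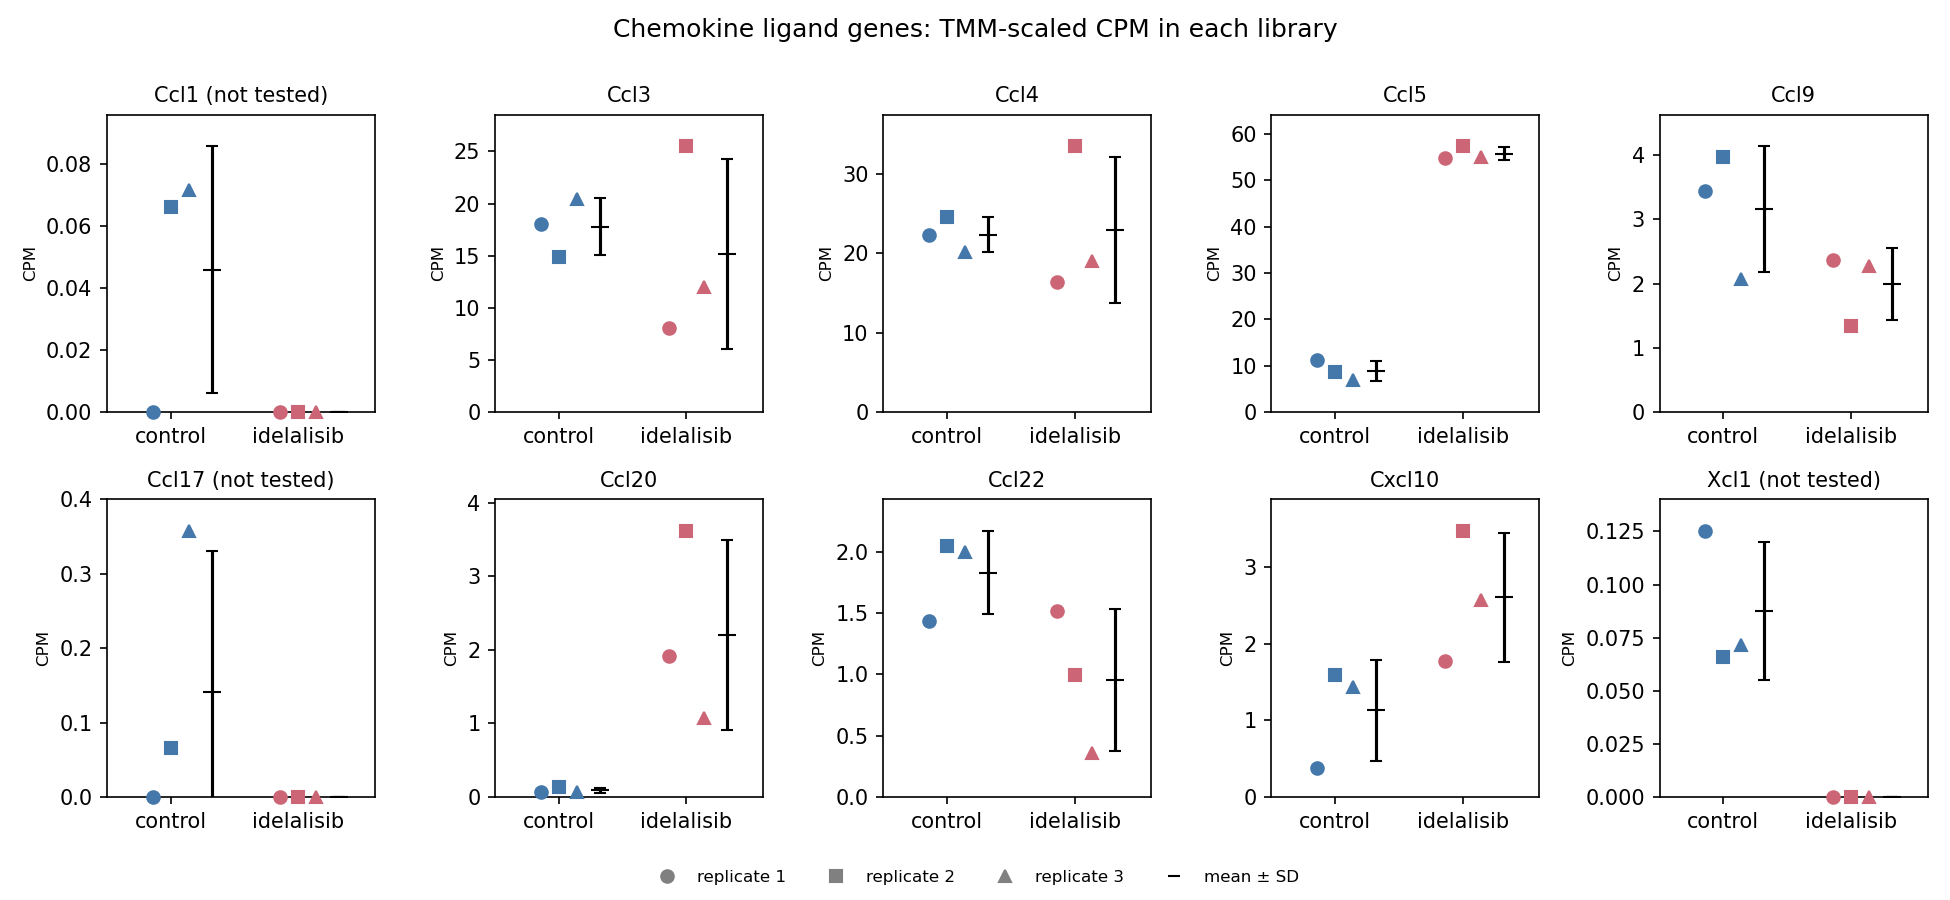
Level of each of the 10 chemokine ligand genes in TMM-scaled CPM (vertical axes, linear, each with its own scale), with 1 point per library, replicates by symbol, and the mean ± SD of 3 libraries beside them (bars that would fall below 0 end at the axis). Ccl5 sits between 6.93 and 11.1 CPM in control and between 54.8 and 57.3 CPM in idelalisib libraries, while the highest Ccl3 and Ccl4 values are both in idelalisib replicate 2.

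Ccl5 (RANTES) attracts T cells, monocytes and other leukocytes, and its receptors include Ccr1 and Ccr3. Its gene (ENSMUSG00000035042) lies on mm10 chromosome 11, 83525778 to 83530518, minus strand. The control libraries held 178, 130 and 97 reads, or 11.1, 8.59 and 6.93 CPM. The idelalisib libraries held 833, 809 and 920 reads, or 54.8, 57.3 and 54.9 CPM. Every idelalisib library was above every control library, and the idelalisib values lay close together. Ccl5 rose 6.23-fold, from 8.89 ± 2.12 to 55.7 ± 1.38 CPM (SD, n = 3), or by 2.64 on the log2 scale (edgeR, adjusted p = 1.30e-08, SE 0.14). Without any 1 library the log2 fold change lay between 2.49 and 2.83.

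Ccl20 attracts cells that bear Ccr6, among them Th17 cells and B cells. Its gene (ENSMUSG00000026166, mm10 chromosome 1, 83116766 to 83119167, plus strand) was barely read in control cells, with 1, 2 and 1 reads. The idelalisib libraries held 29, 51 and 18 reads, or 1.91, 3.61 and 1.08 CPM. All 3 idelalisib libraries stood above the control libraries, with replicate 2 the highest and replicate 3 the lowest of them. The scaled ratio of summed reads was 24.0, with an exact 95% counting interval of 9.08 to 89.8 that covers counting error only. The fitted log2 fold change was 4.49 (edgeR, adjusted p = 9.51e-05, SE 0.65) and 3.95 without idelalisib replicate 2. With 4 control reads in all, the size of the Ccl20 rise is poorly fixed.

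Cxcl10 (IP-10) is an interferon-induced ligand of Cxcr3, a receptor typical of Th1 cells. Its gene (ENSMUSG00000034855) spans mm10 chromosome 5, 92346638 to 92348889, minus strand. Control libraries held 6, 24 and 20 reads, or 0.375, 1.59 and 1.43 CPM. Idelalisib libraries held 27, 49 and 43 reads, or 1.78, 3.47 and 2.57 CPM. The groups did not overlap, and control replicate 1 was far below the other control libraries. Cxcl10 rose 2.31-fold, from 1.13 ± 0.658 to 2.60 ± 0.847 CPM (SD, n = 3), or by 1.21 on the log2 scale (edgeR, adjusted p = 0.0344, SE 0.43). The call was lost without control replicate 1 (log2 fold change 0.78, edgeR adjusted p = 0.126), idelalisib replicate 2 (0.97, 0.0778) or idelalisib replicate 3 (1.23, 0.0714). Art3 overlaps Cxcl10 on the opposite strand and held 0 reads in each control library and 1, 3 and 0 in the idelalisib libraries.

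Ccl3 and Ccl4 (MIP-1 alpha and MIP-1 beta) are inflammatory ligands that activated T cells secrete soon after stimulation, and Ccl3 binds Ccr1. Ccl3 (ENSMUSG00000000982, mm10 chromosome 11, 83647844 to 83649355, minus strand) was at 18.0, 14.9 and 20.4 CPM in control and 8.03, 25.5 and 12.0 CPM in idelalisib libraries. Ccl4 (ENSMUSG00000018930, mm10 chromosome 11, 83662584 to 83664683, plus strand) was at 22.3, 24.6 and 20.2 CPM in control and 16.5, 33.5 and 19.0 CPM in idelalisib libraries. For both genes idelalisib replicate 2 was the highest of all 6 libraries, while idelalisib replicates 1 and 3 were below every control library. With all libraries Ccl3 had a log2 fold change of -0.24 (edgeR, adjusted p = 0.704, SE 0.44) and Ccl4 of 0.03 (edgeR, adjusted p = 0.923, SE 0.24). Without idelalisib replicate 2, Ccl3 was called lower at -0.81 (edgeR, adjusted p = 0.000568, SE 0.17) and Ccl4 at -0.33 (edgeR, adjusted p = 0.0392, SE 0.13). Without idelalisib replicate 1 the values were 0.08 for Ccl3 and 0.24 for Ccl4, neither called. Both signs thus turned with 1 library, and neither a fall nor its absence was shown for these genes.

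**Figure D2:**
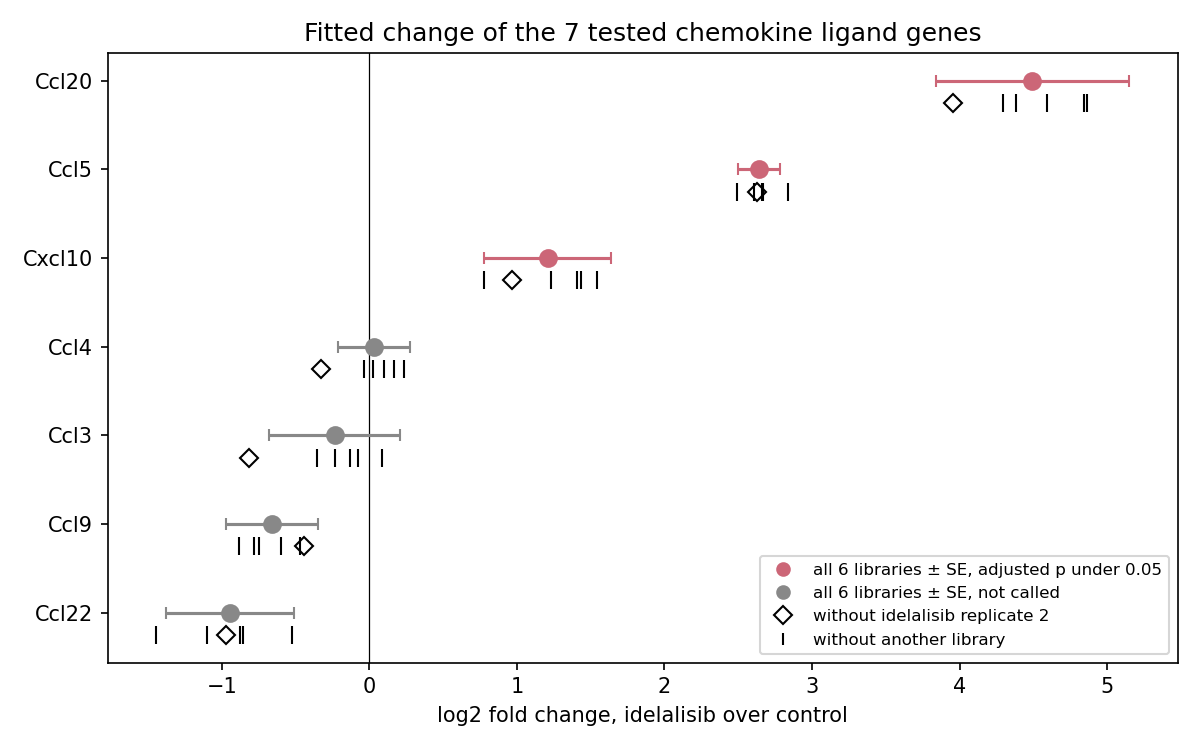
Log2 fold change of the 7 tested genes, idelalisib over control (horizontal axis), from the edgeR fit of all 6 libraries with its SE, and below each the 6 fits that each left out 1 library. Ccl5 and Ccl20 stay to the right of 2 in every fit, whereas without idelalisib replicate 2 (diamonds) Ccl3 and Ccl4 move to -0.81 and -0.33.

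Ccl22 (macrophage-derived chemokine) and Ccl17 (TARC) are the ligands of Ccr4, a receptor of Th2 and regulatory T cells. Ccl22 (ENSMUSG00000031779, mm10 chromosome 8, 94745590 to 94751699, plus strand) held 23, 31 and 28 control reads and 23, 14 and 6 idelalisib reads. These were 1.44, 2.05 and 2.00 CPM in control and 1.51, 0.991 and 0.358 CPM in idelalisib libraries. The groups overlapped through idelalisib replicate 1, and replicate 3 was the lowest. Ccl22 had a log2 fold change of -0.95 (edgeR, adjusted p = 0.0893, SE 0.43), which was -1.45 and called without idelalisib replicate 1 (edgeR adjusted p = 0.0359) and -0.52 without replicate 3 (0.290). Ccl17 (ENSMUSG00000031780, mm10 chromosome 8, 94810453 to 94812036, plus strand) held 0, 1 and 5 control reads and none in the idelalisib libraries. With 5 of its 6 reads in control replicate 3, no direction was read from Ccl17.

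Ccl9 (MIP-1 gamma) is a ligand of Ccr1 better known from myeloid cells. Its gene (ENSMUSG00000019122) lies on mm10 chromosome 11, 83572919 to 83578636, minus strand, and held 55, 60 and 29 control and 36, 19 and 38 idelalisib reads. These were 3.44, 3.96 and 2.07 CPM in control and 2.37, 1.35 and 2.27 CPM in idelalisib libraries. Control replicate 3 fell among the idelalisib values. The log2 fold change was -0.66 (edgeR, adjusted p = 0.0999, SE 0.31), and without control replicate 3 it was -0.88 and called (edgeR adjusted p = 0.0446). Idelalisib replicate 2, the highest library for Ccl3, Ccl4, Ccl5, Ccl20 and Cxcl10, was the lowest for Ccl9.

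The last members were close to undetected. Xcl1 (lymphotactin), the C family ligand that draws Xcr1-bearing dendritic cells, held 2, 1 and 1 control reads and none with idelalisib (ENSMUSG00000026573, mm10 chromosome 1, 164931644 to 164935527, minus strand). Ccl1, a ligand of Ccr8, held 0, 1 and 1 control reads and none with idelalisib (ENSMUSG00000020702, mm10 chromosome 11, minus strand). The deposited model of Ccl1 spans 129034 bases, from 82176657 to 82305690. Zero reads over the 3 idelalisib libraries allow up to 3 reads, or 0.0651 CPM over the group. A fall in these genes could therefore not be told from no change at this depth.

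Per length, in RPKM (CPM divided by the deposited gene length in kilobases), the control cells held Ccl4 at 33.9 ± 3.29, Ccl3 at 23.2 ± 3.61 and Ccl5 at 9.26 ± 2.21 (SD, n = 3). The ranges of these top members did not overlap in control libraries. The next levels were Ccl9 at 1.04, Ccl22 at 0.787 and Cxcl10 at 0.502 RPKM, whose neighbours overlapped, followed by Ccl17 at 0.275, Xcl1 at 0.167, Ccl20 at 0.0624 and Ccl1 at 0.0194 RPKM. In idelalisib libraries Ccl5 came first at 58.0 ± 1.44 RPKM, above Ccl4 at 34.8 ± 13.9, and the ranges of Ccl4 and Ccl3 (19.8 ± 11.9) overlapped. Ccl20 moved to the fourth place at 1.55 RPKM, with Cxcl10 at 1.16, Ccl9 at 0.655 and Ccl22 at 0.411 RPKM after it. The ranges of Ccl20 and Cxcl10 overlapped, as did those of Ccl9 and Ccl22.

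The make-up of the 10 genes' transcripts differed between the groups. Ccl5 made up 10.7 to 16.3% of the summed RPKM in control libraries (13.3 ± 2.83%, SD, n = 3) and 59.4, 40.1 and 54.8% in idelalisib libraries. Ccl4 made up 49.0 ± 4.52% in control and 29.2 ± 4.34% in idelalisib libraries, and Ccl3 33.6 ± 5.61% and 16.1 ± 5.82% (SD, n = 3). These are shares of a sum that includes Ccl5, and they show no fall of either gene itself. In mean RPKM, Ccl4 was at 33.9 in control and 34.8 in idelalisib libraries, and Ccl3 at 23.2 and 19.8, neither called. The sum itself was 71.2, 68.9 and 67.7 RPKM in control and 96.1, 148.6 and 104.5 RPKM in idelalisib libraries. Within a library, Ccl5 stood at 0.343, 0.240 and 0.236 times the Ccl4 level in control and at 2.29, 1.18 and 1.99 times with idelalisib. That ratio separated the groups (exact permutation test, two-sided p = 0.1, the smallest that 3 against 3 allows). Given the Ccl5 levels already described, this separation restates the Ccl5 rise and is no further result. The ratio of Ccl3 to Ccl4 was 0.695, 0.523 and 0.871 in control and 0.420, 0.656 and 0.545 with idelalisib, and the groups overlapped (exact permutation test, two-sided p = 0.3).

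**Figure D3:**
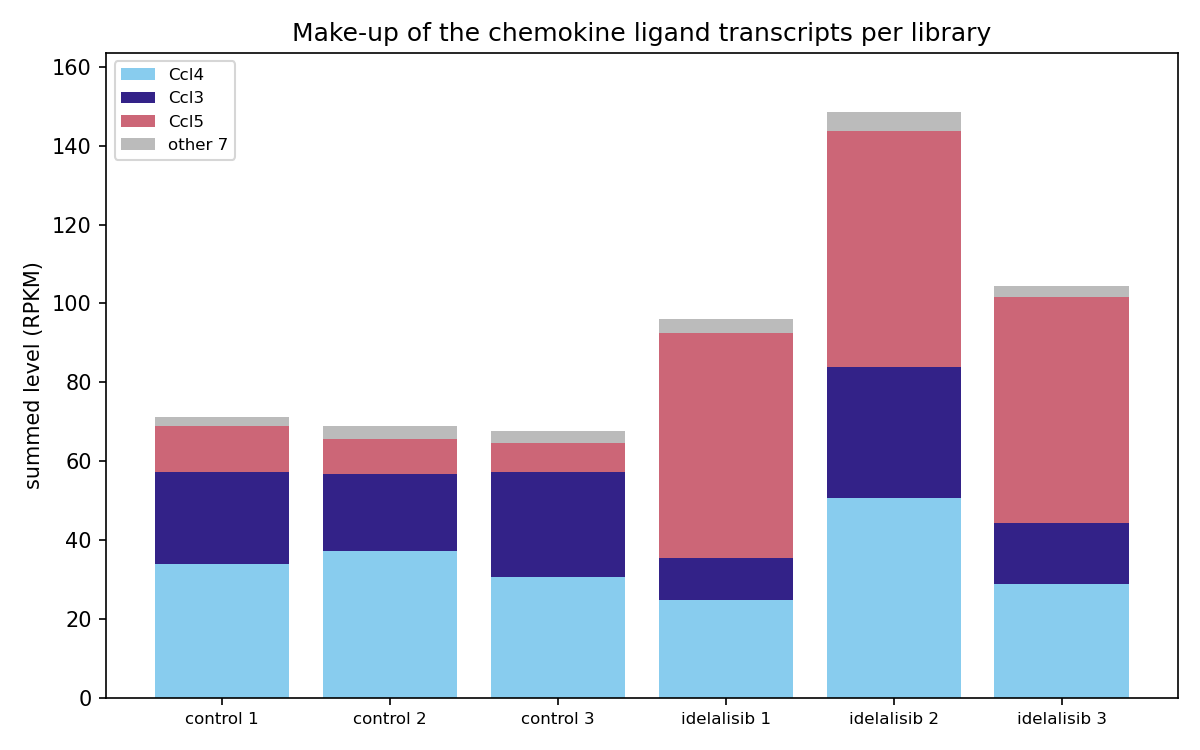
Summed level of the 10 genes in RPKM (vertical axis, from 0) in each of the 6 libraries, stacked by Ccl4, Ccl3, Ccl5 and the other 7 genes together. Ccl5 fills 10.7 to 16.3% of the control bars and 40.1 to 59.4% of the idelalisib bars.

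Ccl5, Ccl9, Ccl3 and Ccl4 are neighbours on chromosome 11, within 139 kb from the lower end of Ccl5 to the upper end of Ccl4. Ccl9 begins 47.1 kb, Ccl3 122 kb and Ccl4 137 kb from the lower end of Ccl5. Ccl5 was the only one of these 4 called with all libraries. Ccl6, the other chemokine gene in this stretch, held 0, 2 and 0 control and 4, 4 and 6 idelalisib reads and was not tested. On chromosome 8, Ccl22 and Ccl17 lie within 66.4 kb with Cx3cl1 between them, which held 0, 0 and 5 control and 0, 1 and 4 idelalisib reads. No 50-base word of Ccl3, Ccl4, Ccl5, Ccl20 or Ccl22 occurred in transcripts of other genes in GENCODE M21, while 1.97% of those of Ccl9 and 3.59% of those of Cxcl10 did. The share was highest for Xcl1, at 10.8%, all with Gm20743, which overlaps Xcl1 on the opposite strand and held at most 1 read per library.

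Markers of other cell types that can make these chemokines were mostly rare, and their calls are to be read beside the 22.2% higher and 22.4% lower among all genes tested. Of 9 B cell markers, 7 were tested, 6 were higher and none lower, and their sum was 7.86 to 9.08 CPM in control and 15.1 to 18.3 CPM in idelalisib libraries. Of 6 natural killer (NK) cell markers, 3 were tested and 2 were higher, with a sum of 11.4 to 12.2 CPM in control and 17.05 to 22.1 CPM with idelalisib, and the defining marker Ncr1 was at 0 in every library. Both CD8 T cell markers were tested and 1 was higher, with sums of 4.43 to 7.86 and 7.24 to 9.50 CPM. Of 10 macrophage and monocyte markers, 2 were tested, Cybb higher and Cd68 lower, the defining markers Adgre1 and Fcgr1 held at most 1 read per library, and the sum, mostly Cd68, was 18.4 to 19.0 CPM in control and 12.6 to 14.7 CPM with idelalisib. Of 9 dendritic cell markers, 3 were tested and none was called (edgeR), and Siglech and Clec10a were at 0 in every library. The dendritic cell sums, mostly Batf3, were 82.3 to 83.9 CPM in control and 55.6 to 82.2 CPM in idelalisib libraries. Of 7 granulocyte markers, Ly6g and Cxcr2 were tested and both were higher, and they made up nearly all of the sums of 48.4 to 50.3 and 119.4 to 147.9 CPM. The defining granulocyte markers S100a8, S100a9, Elane and Mpo were at or near 0, with at most 4 reads in any library, and Mcpt8 held at most 8. The B cell marker Blk and Cybb passed the filter through their idelalisib libraries alone. The B cell markers Bank1, Cd79a and Cd79b also needed their idelalisib libraries to pass. Their lowest control libraries, with 9, 8 and 8 reads, fell short of the minimum count. The part of such cells in the chemokine levels was not tested, and in bulk RNA fewer cells of a type and less RNA per cell cannot be told apart.

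Most other chemokine ligand genes were silent or nearly so. Of 28 further ligands, 4 were tested, 1 was higher and none lower (edgeR), with a median log2 fold change of 0.02, and 12 had no read in any library. Pf4, a platelet chemokine, rose from 0.322 ± 0.255 to 2.17 ± 1.33 CPM (SD, n = 3; edgeR log2 fold change 2.75 ± 0.61 SE, adjusted p = 0.00242), with 0.987, 3.61 and 1.91 CPM in the idelalisib libraries. Pf4 held 1, 5 and 8 control reads and passed the filter through its idelalisib libraries alone, so its call is a description. Its log2 value was 3.42 without control replicate 3 and 2.20 without idelalisib replicate 2, the largest and smallest with 1 library left out. Its platelet partner Ppbp held 1, 6 and 0 control and 4, 15 and 18 idelalisib reads and was not tested. Platelets are also a known store of Ccl5 protein, and the part of platelet RNA in the Ccl5 level was not tested.

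Several receptors of these ligands were read in the same cultures, 5 of them at 1 CPM or more on average. Of 9 receptor genes, 6 were tested, 3 were higher and 2 lower, beside 22.2% and 22.4% of all genes tested. The median log2 fold change of the 6 was 0.20, Ccr3 included, which passed the filter through its idelalisib libraries alone. Of the 3 not tested, Ackr1 had no read, Ackr2 had 2 reads in 1 library and Xcr1 at most 3 per library. Cxcr3, the receptor of Cxcl10, rose from 6.47 ± 0.352 to 16.1 ± 1.46 CPM (SD, n = 3), and Ccr4, the receptor of Ccl17 and Ccl22, rose by 0.50 on the log2 scale. Ccr8, the receptor of Ccl1, fell from 7.34 ± 1.27 to 2.99 ± 0.609 CPM (SD, n = 3; edgeR log2 fold change -1.29 ± 0.22 SE, adjusted p = 0.000375). Ccr1, which binds Ccl3, Ccl5 and Ccl9, was called lower at -0.77 (edgeR adjusted p = 0.0369), a call lost in 9 of 13 alternatives with adjusted p up to 0.117, among them the fits without any 1 control library or without idelalisib replicate 1 or 3. Ccr6, the receptor of Ccl20, was at 1.74 ± 0.326 and 1.61 ± 0.0780 CPM (SD, n = 3; edgeR log2 fold change -0.11 ± 0.31 SE, adjusted p = 0.794). The third higher gene was Ccr3, chosen after its values were seen, at 2.22 on the log2 scale and under 1 CPM on average.

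**Figure D4:**
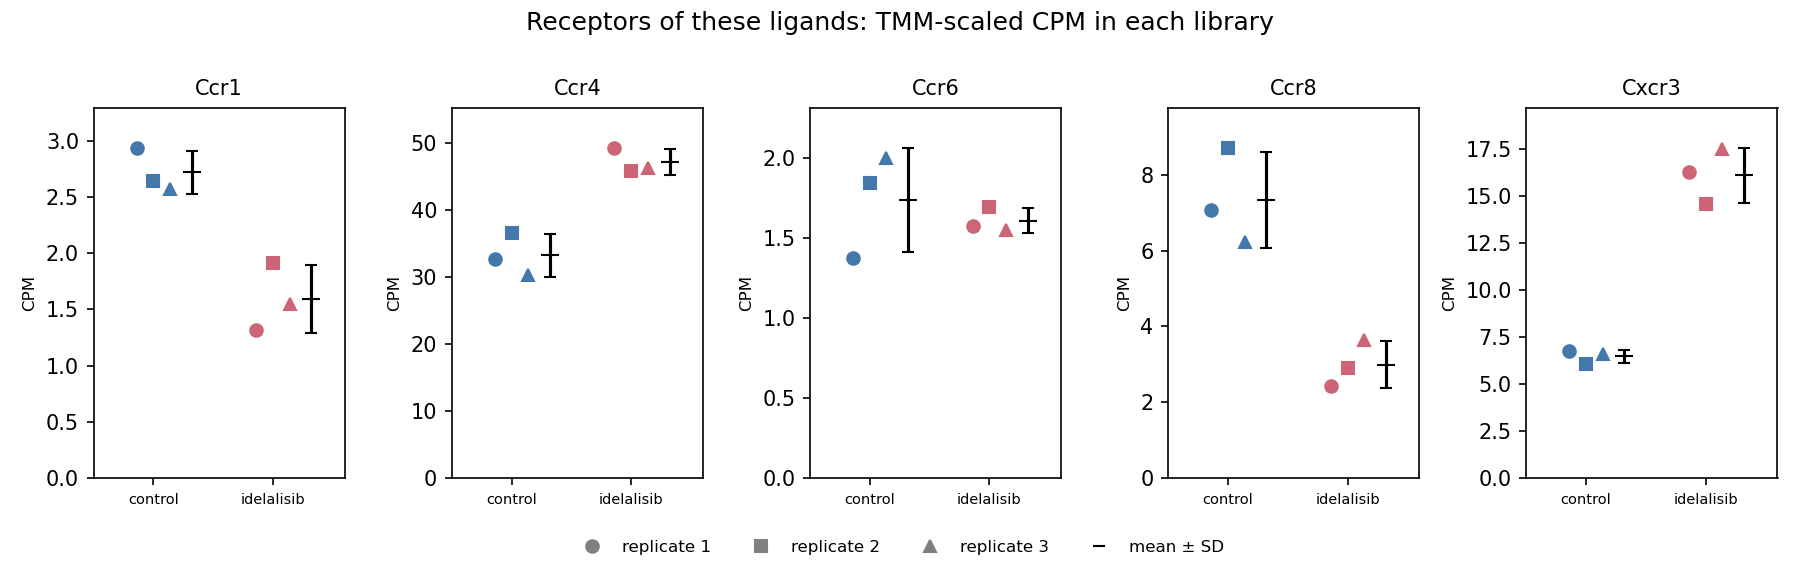
Level of 5 receptor genes in TMM-scaled CPM (vertical axes, linear, each with its own scale), with 1 point per library and the mean ± SD of 3 libraries per group. Cxcr3 and Ccr4 lie higher in every idelalisib library, Ccr8 and Ccr1 lower, and the Ccr6 values overlap.

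Of 21 genes for transcription factors known to act on chemokine genes, all were tested, 11 were higher and 3 lower, beside 22.2% and 22.4% of all genes tested, with a median log2 fold change of 0.24. Irf7, the interferon regulatory factor that amplifies type I interferon responses, rose from 3.36 ± 0.814 to 28.3 ± 2.73 CPM (SD, n = 3; edgeR log2 fold change 3.07 ± 0.17 SE, adjusted p = 1.98e-08). The AP-1 subunit gene Fos rose by 2.25, and Stat2 and Irf9, which encode partners in the type I interferon signalling complex, rose by 1.14 and 0.79 on the log2 scale. The 3 lower genes, named although outside the naming rule, were Stat4 at -0.55, Rel at -0.42 and Nfkb1 at -0.23 on the log2 scale. Stat4 kept its call in all 13 alternatives. Rel lost it in 3 of 13 (library size alone, without control replicate 3 and without idelalisib replicate 1; adjusted p up to 0.0920). Nfkb1 lost it in 5 of 13 (library size alone and without any 1 control library or idelalisib replicate 1; adjusted p up to 0.381). Among genes of chemokine processing and storage, Dpp4, a surface peptidase that trims Ccl5, Ccl22 and Cxcl10, rose from 42.3 ± 2.95 to 96.7 ± 7.57 CPM (SD, n = 3). Srgn, the granule proteoglycan serglycin, fell from 558.5 ± 12.2 to 446.9 ± 13.1 CPM (SD, n = 3; edgeR log2 fold change -0.32, adjusted p = 0.00267). Scaled by library size alone, which moved the median of all genes to 0.16, its value was -0.17 and no longer called (adjusted p = 0.0689).

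The genes most like Ccl20 and Ccl22 across the libraries were found by Pearson correlation of log2 CPM over the 6 libraries, which fall into the 2 groups. For Ccl20 these were Fgfr1op2, Ybey and Zfp53, with correlations of 0.999, 0.998 and 0.996. Their log2 fold changes were 0.15 (not called), 0.89 and 0.47, beside 4.49 for Ccl20. For Ccl22 they included Hmbox1 at 0.985 and Zbtb20 at 0.981, with log2 fold changes of -0.19 (not called) and -0.50, beside -0.95 for Ccl22. A high correlation thus does not mean a change of like size. With 6 libraries and so many genes to choose from, such values describe these libraries alone.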

How the data were processed

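The authors deposited raw read counts per gene for 6 libraries, and each column was matched to its sample by the name in the labels. The submitters' processing notes name fastp, HISAT2 2.0.5, build mm10 and featureCounts 1.5.0-p3. The handling of strand and of multiply mapped reads, and the annotation counted, were not stated in these sources. Gene lengths are those the authors deposited.

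Genes were filtered with filterByExpr (minimum count 10, minimum total 15), scaled with TMM factors and tested over all 14530 genes left with edgeR 4.0.16 in R 4.3.3 (quasi-likelihood F test, robust dispersion, no covariate). Benjamini-Hochberg adjustment ran over those genes, and an adjusted p under 0.05 made a call. Each standard error was derived from the F statistic of its fold change. Where a symbol had several entries, the one with the most counts was kept. Correlations used log2 of CPM plus 0.5.

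The members and lists were chosen with earlier results of these data known. Named genes are all members, up to 4 called genes per list with the largest change that average at least 1 CPM, all receptors that average at least 1 CPM, and for the members with the largest rise and fall the 3 protein-coding genes with the highest correlation; some items that this rule or the receptor list takes in are not reported here. The promoter motifs were also chosen after the members' values were known. The interferon-stimulated core was first searched in a form 1 letter longer, which among the members matched Cxcl10 alone; it was shortened after those matches were seen, and the shorter form also matches Ccl1 and Ccl3. The fit was tested on simulated data, where unchanged genes made up more than the nominal share of calls on average, so a call close to 0.05 is weaker than its adjusted p says. Alternatives were RLE scaling, library size alone, DESeq2 1.42.0, limma-voom (limma 3.58.1), no filter beyond 1 count, protein-coding genes alone, a replicate block, each library left out, and a minimum log2 fold change of 1. The last was run for the counts of members called alone, and the others also for each member tested and each called gene named from the pathway lists, and for Ccr6. Intervals and floors cover counting error only.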

Additional observations from a re-analysis of the deposited data

How the results depend on the processing

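Over 13 alternatives, Ccl5 and Ccl20 kept their direction and call, with log2 fold changes of 2.49 to 2.83 and 3.95 to 4.86. Cxcl10 kept its direction in all 13 and its call in 10, and the 3 losses each came from leaving out 1 library. Ccl3, Ccl9 and Ccl22 were each called lower in 1 of 13, again with 1 library left out, and Ccl4 turned to a called -0.33 without idelalisib replicate 2, against 0.24 without idelalisib replicate 1; the causes were not tested. The number of members called lower was 0 with all libraries and 0 to 2 with 1 library left out. With the replicate block, 3 members were higher and 0 lower, and 2910 genes were higher and 3051 lower overall against 3223 and 3256. Same-numbered libraries did not deviate together (correlations of 0.09, -0.14 and -0.12), so the numbers were not taken as pairs, and not every library correlated best with its own number. Under the block the call of Ccr1 was lost (adjusted p = 0.0613). Scaling by library size alone shifted the median of all genes on the log2 scale from 0.01 to 0.16, called 4832 genes higher and 2219 lower, and left the calls of all 7 tested members unchanged. Cxcl10, Ccl20, Ccl22 and Ccl9 rest on at most 60 reads per library, which limits their precision.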

Other observations

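Cxcl9, a further interferon-induced ligand of Cxcr3 that was too rare to test and was chosen after its values were seen, held 0 reads in each control library and 6, 11 and 2 in the idelalisib libraries.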
